A study of Mus musculus with 4 samples.

Results

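Neurod1, Neurod2, Neurod4, Neurog2, Nhlh1, Nhlh2, Eomes, Insm1, Elavl2 and Calb2 are genes of young neurons, and they make up 10 of the 21861 features counted in single cells of MYCN-driven mouse brain tumors. They were chosen by name, for their known place in neuronal differentiation and for earlier values from these same cells that placed them in neuroblast-like (NB-like) tumor cells. The comparison of NB-like with other cells, of P43 with P70 and of cycling with other cells therefore describes these genes, and no test of them is given. All 4 mice carried hGFAP-cre::TP53Fl/Fl::lsl-MYCN, so that both ages share the loss of p53 and the human MYCN transgene with its firefly luciferase reporter (FLUC). The hGFAP promoter drives Cre in radial glia and in the neural precursors that come from them. Mice 4 and 5 were taken at 43 days of age (P43), mice 6 and 7 at 70 days (P70), and no mouse without the transgene is among these libraries. Each mouse gave 1 library, made from cells that were frozen, thawed and sorted for viability. The paper names the source of the cells as olfactory bulb/tumor tissue.

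Basic helix-loop-helix (bHLH) factors drive the step from a dividing neural precursor to a neuron. Neurog2 acts early, Neurod1, Neurod2 and Neurod4 follow it, and Nhlh1 and Nhlh2 appear in newly born neurons. They bind DNA as partners of broadly expressed E proteins at E-boxes, written CANNTG, while Id proteins hold the E proteins back, and Notch signalling acts through Hes factors to keep cells as precursors. Insm1 is a zinc finger factor of neuronal and endocrine precursors, Eomes (Tbr2) is a T-box factor of intermediate progenitors of excitatory neurons and also of cytotoxic lymphocytes, Elavl2 binds RNA in neurons, and Calb2 is the calcium-binding protein calretinin.

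Because these factors bind E-boxes, and are known to act on each other's genes, the stretch of 250 bases before the transcription start of 4 of them is shown, with each E-box in capitals. The sequences and starts are RefSeq's, in build GRCm38.p6, and run in the direction of transcription. Neurod1 lies on the minus strand at chr2:79456637-79456886, Neurod2 on the minus strand at chr11:98329646-98329895, Nhlh1 on the minus strand at chr1:172057597-172057846 and Nhlh2 on the plus strand at chr3:102009895-102010144.
Neurod1: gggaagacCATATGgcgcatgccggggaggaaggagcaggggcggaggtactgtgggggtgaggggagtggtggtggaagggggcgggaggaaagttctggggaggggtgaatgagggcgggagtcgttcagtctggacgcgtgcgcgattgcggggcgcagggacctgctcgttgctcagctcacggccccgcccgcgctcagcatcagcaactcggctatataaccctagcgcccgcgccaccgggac
Neurod2: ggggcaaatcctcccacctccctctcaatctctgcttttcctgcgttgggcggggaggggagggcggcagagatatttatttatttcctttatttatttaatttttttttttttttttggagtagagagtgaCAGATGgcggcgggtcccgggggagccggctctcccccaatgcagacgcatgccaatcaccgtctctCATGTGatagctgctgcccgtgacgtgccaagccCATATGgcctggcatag
Nhlh1: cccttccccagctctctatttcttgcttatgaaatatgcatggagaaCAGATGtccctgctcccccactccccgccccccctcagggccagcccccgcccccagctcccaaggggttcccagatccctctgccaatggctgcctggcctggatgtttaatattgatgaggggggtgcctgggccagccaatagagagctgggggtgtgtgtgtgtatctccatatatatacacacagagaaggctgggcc
Nhlh2: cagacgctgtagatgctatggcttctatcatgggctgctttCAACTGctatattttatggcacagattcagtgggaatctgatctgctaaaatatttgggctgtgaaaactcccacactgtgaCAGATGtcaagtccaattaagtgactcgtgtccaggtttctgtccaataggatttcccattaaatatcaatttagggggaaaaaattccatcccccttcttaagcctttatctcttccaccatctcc
The Neurod1 window held a single E-box, CATATG, which began 242 bases before the start. That of Neurod2 held 3, CAGATG at 118, CATGTG at 51 and CATATG at 17 bases before the start. Nhlh1 and Nhlh2 each held a CAGATG, at 203 and 127 bases, and Nhlh2 also a CAACTG at 209 bases. Entries were found for 8 of the 10 genes. The windows of Eomes, Neurod4 and Neurog2 held no E-box. For Elavl2, 3 overlapping windows held the same CATGTG site, and its other windows held no E-box. Among all 32851 mouse promoters of that length, searched on both strands, 66.2% held a CANNTG, 14.4% a CAGATG, 3.46% a CATATG and 6.02% the CACGTG that MYC proteins prefer, so that an E-box as such is common. CACGTG was in none of the members' windows. A match is only a string of letters and was not tested for binding.

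In GENCODE coordinates of GRCm38, Neurod1 spans chr2:79452521-79456751, Neurod2 chr11:98325415-98329648, Nhlh1 chr1:172052292-172057573, Nhlh2 chr3:102010076-102015492 and Insm1 chr2:146221921-146225020. Insm1 has a single exon, while Neurod1, Neurod2 and Nhlh1 have 2 exons. The GENCODE starts of Neurod1, Neurod2 and Nhlh2 lie upstream of the RefSeq starts used for the windows above, which therefore reach into those GENCODE genes, and the distances of the E-boxes hold for the RefSeq starts. Neurod1 shares its locus and strand with part of Cerkl, so that a read in the shared stretch may come from either gene.

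Libraries held 1739 to 3693 barcodes and 13106786 to 40621958 unique molecular identifiers (UMIs, 1 per captured RNA molecule). After the filters, 10975 cells remained, with medians of 1419, 4200.5, 4587 and 10450 UMIs for mice 4 to 7, and the deepest library is also the one with most NB-like cells. Levels are given as counts per 1e6 (CPM) of the summed UMIs of a cell class in a mouse, and an interval, where given, covers counting error only. In such sums, fewer cells with a gene and less RNA per cell cannot be told apart. Of 11819 distinct barcodes, 15 were shared by more than 1 library. Transcripts of the Y chromosome in non-tumor cells went against the labelled sex of both P43 mice (224 CPM in the library labelled female, 0.64 CPM in the one labelled male) and matched it in both P70 mice. Both of the former are P43 by label, so an exchange between them would leave the age groups as they are. Sex does not show whether libraries were exchanged across ages, which was not tested. Ages are used as labelled, and mouse 4 and mouse 5 stand for the libraries so labelled.

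Clusters with at least 500 CPM of FLUC plus human MYCN carried the transgene by this measure, and classes were named from fixed markers. Tumor cells below are OL-like, NB-like and AC-like cells. OL-like cells, which carry oligodendrocyte-lineage genes such as Olig1, Sox10 and Bcas1, made up 1770, 219, 318 and 1873 cells in mice 4, 5, 6 and 7. NB-like cells, which carry neuroblast genes such as Sox11, Stmn2 and Tubb3, made up 79, 9, 30 and 595 cells, or 4.19%, 3.73%, 6.96% and 22.3% of tumor cells. Without integration of the mice, the NB-like cluster held 1, 3, 23 and 597 cells, so the P43 counts hang on that step. Neurod1 was itself among the leading genes of the NB-like cluster. AC-like cells with astrocyte markers (35, 13, 83 and 198) and a reporter-positive cluster with markers of mature oligodendrocytes (MOL-marked, 474, 75, 99 and 326) also passed that level, as did a cluster of 33, 44, 113 and 55 cells that was given no class. The other 928, 1096, 2088 and 422 cells were called non-tumor. The MOL-marked class hangs on the clustering. With finer clustering (resolution 1.0) no cluster bore that name. Clusters named mature oligodendrocytes then held 414 and 179 CPM of reporter, below the level for tumor. An OL-like cluster with such markers held 1476 CPM. The class was also lost with a higher UMI limit or with members left out of clustering. It stayed without integration and under a stricter mitochondrial limit. Whether it mixes tumor and non-tumor cells was not tested.

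The NB-like label was borne out by part of its markers at P70 and only in part at P43. In the NB-like cells of mouse 6, FLUC stood at 1148 CPM and human MYCN at 1326 CPM, and in those of mouse 7 at 1453 and 997 CPM. In mouse 4 these were 212 and 106 CPM, and in mouse 5 they were 106 and 196 CPM, which sum to less than the 500 CPM set for a tumor cluster. Genes of inhibitory neurons and of synapses went the other way. Among them, Gad2 and Dlx1 belong to the fixed markers that name this class, and both were near absent at P70. Gad2, which makes GABA, was at 168 and 784 CPM in mice 4 and 5, at no UMI in mouse 6 (3 counts would make 11.8 CPM) and at 3.48 CPM in mouse 7. The homeobox gene Dlx1 was at 88.4 and 468 CPM at P43, at no UMI in mouse 6 and at 2.09 CPM in mouse 7. Syt1, a protein of synaptic vesicles, was at 884 and 709 CPM at P43, at no UMI in mouse 6 and at 8.48 CPM in mouse 7. Sox11, a factor of immature neurons, stood at 159, 437, 947 and 936 CPM for mice 4 to 7, lower at P43 than at P70. With finer clustering (resolution 1.0), 41 of the 79 NB-like cells of mouse 4 fell into a cluster led by Scg2, Syt1 and Snap25 with 56.8 CPM of reporter. The P43 cells of this cluster are therefore called NB-like by cluster only.

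At P70, Neurod1 was high in NB-like cells and low in nearly all others. Mouse 6 had 580 CPM of it in this class (147 UMIs, exact Poisson 95% interval 490 to 682) and mouse 7 had 639 CPM (5501 UMIs, 622 to 656). In OL-like cells it stood at 1.25, 1.07, 0.795 and 12.1 CPM for mice 4 to 7. No UMI of Neurod1 was found in the NB-like cells of mouse 4 or mouse 5, where 3 counts would make 26.5 and 45.3 CPM. Both P70 values thus lay above every other class in every mouse, of which the next was a reporter cluster of mouse 7 with no class (225 CPM, 17 UMIs), and NB-like cells held 90.2% of all Neurod1 UMIs in the kept cells of mouse 6 and 94.2% in those of mouse 7.

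Nhlh2 and Calb2 shared this pattern. Nhlh2 was at 126 CPM in mouse 6 and 185 CPM in mouse 7 in NB-like cells, against 8.84 CPM (1 UMI) in mouse 4 and no UMI in mouse 5. In OL-like cells it stayed between 0 and 2.83 CPM. NB-like cells held 94.1% and 95.7% of its UMIs in mice 6 and 7. Calb2 was at 292 and 240 CPM in the NB-like cells of mice 6 and 7, at 60.3 CPM (4 UMIs) in mouse 5 and at 8.84 CPM (1 UMI) in mouse 4. Outside them it was highest in oligodendrocyte precursors, at 35.6 CPM (5 UMIs) for mouse 5 and 14.1 CPM (6 UMIs) for mouse 7. For Nhlh2 as for Calb2 the P70 mice lay above the P43 mice without overlap, and the lone UMIs of mouse 4 give its level little weight. As the P43 cells are NB-like by cluster only, age and kind of cell cannot be told apart in any such comparison of NB-like cells.

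Insm1 and Elavl2 were high in NB-like cells but were also found in OL-like cells of every mouse. Insm1 was at 174 and 250 CPM in the NB-like cells of mice 6 and 7, at 30.2 CPM (2 UMIs) in mouse 5 and at no UMI in mouse 4. In OL-like cells it was at 5.34, 14.9, 12.2 and 16.8 CPM. Elavl2 was the only one of the 10 with more than a few UMIs in the NB-like cells of all mice, at 150, 181, 253 and 304 CPM in mice 4 to 7. In OL-like cells Elavl2 stood at 38.8, 25.6, 28.9 and 36.2 CPM, with no overlap between the classes. Only 41.1% of the Insm1 UMIs and 31.8% of the Elavl2 UMIs of mouse 6 lay in its 30 NB-like cells, against 82.7% and 72.5% in mouse 7.

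Neurod2 did not follow Neurod1. NB-like cells held it at 47.4 CPM in mouse 6 and at 44.0 CPM in mouse 7, with no UMI in either P43 mouse. There 3 counts would make 26.5 and 45.3 CPM, so the depth of mouse 5 could not show a lower level than at P70. In OL-like cells it was at 13.9, 54.8, 21.2 and 54.1 CPM in mice 4 to 7, and in MOL-marked cells at 53.1, 8.89, 56.6 and 103 CPM. The 3 classes overlap, and OL-like cells held 65.6% of the Neurod2 UMIs of mouse 7 and NB-like cells 18.3%. Which cells count as MOL-marked depends on the clustering. Of the 409 cells of mouse 7 with at least 2 Neurod2 UMIs, 283 were OL-like, 71 NB-like and 55 MOL-marked, while of its 556 cells with at least 2 Neurod1 UMIs, 514 were NB-like. AC-like cells, which are tumor cells too, held 3 Neurod2 UMIs in all, in mouse 7.

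**Figure D1:**
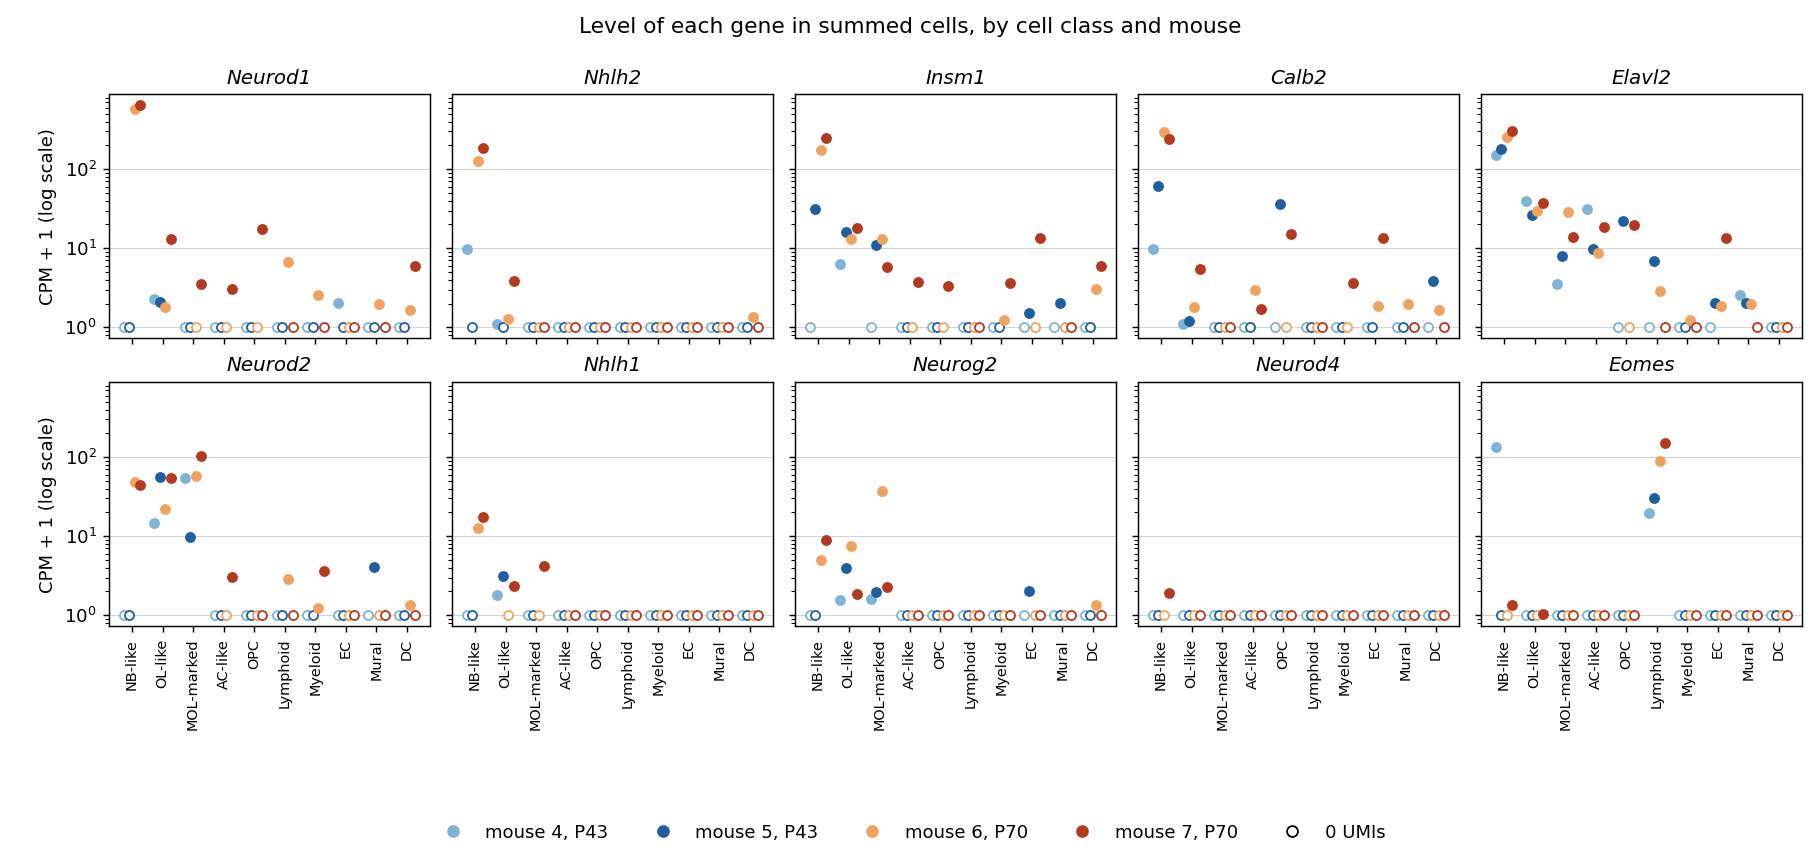
Level of each of the 10 genes (CPM + 1, log axis) in the summed cells of each class, with a point for each mouse and an open circle for 0 UMIs. Neurod1, Nhlh2, Insm1 and Calb2 stand highest in the NB-like cells of mice 6 and 7, Neurod2 lies at similar levels in NB-like, OL-like and MOL-marked cells, and Eomes is at 18.5 to 152 CPM in Lymphoid cells.

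The remaining genes were low. Nhlh1 was at 11.8 CPM (3 UMIs) and 16.6 CPM (143 UMIs) in the NB-like cells of mice 6 and 7 and at 0 to 2.13 CPM in OL-like cells. Neurog2, the earliest of these factors, was at 3.95 CPM (1 UMI) and 7.90 CPM (68 UMIs) in NB-like cells at P70. Its highest level lay elsewhere, at 36.0 CPM (21 UMIs) in the MOL-marked cells of mouse 6, where the other mice had 0.625 to 1.28 CPM. That class depends on the clustering. Neurod4 was found in 8 UMIs only, all in NB-like cells of mouse 7 (0.929 CPM).

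Eomes separated from the group. It was read in 3 UMIs among the 595 NB-like cells of mouse 7 (0.348 CPM) and in none of mouse 6 (3 counts would make 11.8 CPM). Its main site was Lymphoid cells, at 18.5, 29.5, 89.01 and 152 CPM in mice 4 to 7, the last from 4 UMIs in 23 cells. In mouse 4, NB-like cells held 15 Eomes UMIs (133 CPM), and there they went with neuronal genes. With finer clustering, the 41 cells of the neuron-marked cluster held Slc17a6, a vesicular glutamate transporter, at 359 CPM, Syt1 at 1257 CPM and Eomes at 224 CPM. That cluster carried 6 neuron markers and also 6 markers of mature oligodendrocytes. Whether these cells are doublets, and which part of the olfactory bulb/tumor tissue they come from, was not tested.

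In the pooled non-tumor cells the genes were nearly absent. Over the 422 to 2088 non-tumor cells of each mouse, no gene of the 10 passed 7.45 CPM, and that was Elavl2 in mouse 7, the mouse with the most NB-like cells. In mouse 7 Neurod1 reached 6.62 CPM in non-tumor cells, against 0 to 1.27 CPM in the other mice. Whether free RNA from NB-like cells entered these counts was not tested.

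Levels in summed cells do not tell how many cells carry a gene, and deeper cells show more genes. Each cell was therefore thinned to 2000 UMIs, which left 22 NB-like cells in mouse 6, 587 in mouse 7, and 9 and 7 in mice 4 and 5. Neurod1 was found in 63.6% of NB-like cells in mouse 6 (exact binomial 95% interval 40.7 to 82.8) and in 64.1% in mouse 7 (60.0 to 67.9). In OL-like cells the share was 0.142%, 0.488% and 1.40% in mice 4, 5 and 7 and 0 of 299 in mouse 6, which allows up to 1.003%. Myeloid cells, which should lack the gene and serve as background, showed it in 1 of 767 cells (0.130%) in mouse 6 and in 0 of 89 in mouse 7, which allows up to 3.37%. The median depth before thinning was 3791 and 13882 UMIs in NB-like cells of mice 6 and 7, and 5364 and 2321 UMIs in their Myeloid cells.

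The other genes kept the same grouping. In mice 6 and 7, Elavl2 was found in 40.9% and 44.0% of NB-like cells, Insm1 in 36.4% and 36.8%, Calb2 in 11 of 22 cells and 31.5%, and Nhlh2 in 22.7% and 27.1%. The intervals of the mice overlap for each of these genes, and with 22 cells those of mouse 6 are wide. Neurod2 was found in 4.55% and 6.13% of NB-like cells, which for mouse 7 is not above the 8.19% of its OL-like cells (6.98 to 9.53). Elavl2 was found in 5.02% to 8.51% of OL-like cells in all 4 mice, and in 0 of 767 Myeloid cells of mouse 6, which allows up to 0.391%. Without thinning, 80.1% of P70 NB-like cells had a Neurod1 UMI (mean of both mice).

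**Figure D2:**
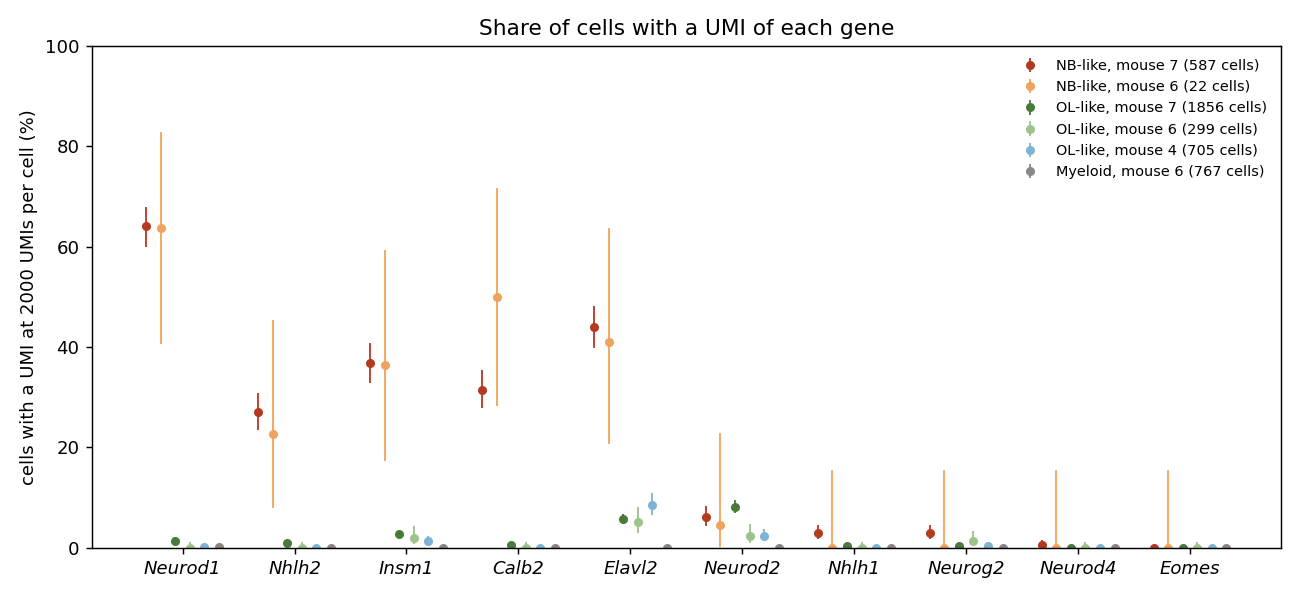
Percent of cells with a UMI of each gene after thinning each cell to 2000 UMIs. Points are 1 mouse and class each, and bars are exact binomial 95% intervals, which cover counting error only. NB-like cells of mice 6 and 7 lie near 64% for Neurod1 and between 22% and 50% for Nhlh2, Insm1, Calb2 and Elavl2, and all OL-like points lie below 10%.

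Single NB-like cells carried several of these genes at once. At 2000 UMIs a NB-like cell held 2.18 of the 10 genes on average in mouse 6 and 2.16 in mouse 7, against 0.107 and 0.199 in OL-like cells. At least 3 were found in 54.5% of NB-like cells of mouse 6 and in 37.8% of those of mouse 7, against 0% and 0.808% of OL-like cells and 0% of Myeloid cells in every mouse. The share in mouse 7 was 13.01% at 1000 UMIs and 88.7% without thinning. In mouse 7, pairs of genes each found in at least 20 NB-like cells came together about as often as the product of their single shares. In mouse 7, Neurod1 and Nhlh2 were both found in 19.6% of NB-like cells, where the product is 17.4%. Among these pairs, Insm1 and Calb2 departed most, with 14.7% against 11.6%, a ratio of 1.26. Nhlh2 with Calb2 and Elavl2 with Calb2 were at ratios of 0.998 and 0.996, and over the 15 pairs whose genes were each found in at least 20 cells the ratio ran from 0.923 to 1.26. Cells of 1 mouse are not replicates, so these are descriptions of that tumor.

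In mouse 7, 34 OL-like cells carried at least 2 Neurod1 UMIs. Their median depth was 19852 UMIs, against 12405 in the class, and they held a median of 8 of 10 oligodendrocyte-lineage markers, the same as the class. In mice 4, 5 and 6 there were 3, 0 and 0 such cells. Whether these are doublets of an OL-like and a NB-like cell was not tested.

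Finer clustering showed where Neurod2 lies among OL-like cells. A cluster of 16, 16, 6 and 199 cells in mice 4 to 7, led by Tubb3, a neuronal tubulin, with Ppp1r17, Olig1, Cntn2 and Neurod2, held Neurod2 at 349, 281, 213 and 292 CPM. It carried all 10 OL markers, with Olig1 at 570, 316, 402 and 579 CPM. Stmn2, which marks NB-like cells, was at 0 CPM in mice 4 to 6 and at 3.49 CPM in mouse 7, against 1359 CPM in a NB-like cluster of that mouse. Of the other genes, Insm1 was at 75.6, 46.3, 23.6 and 58.9 CPM there, Nhlh1 at 23.3, 29.0, 0 and 8.28 CPM, and Calb2 at 0 to 2.90 CPM. Neurod1 was at 58.1, 5.79, 0 and 8.72 CPM. Neurod2 is among the genes that define this cluster, so its height there is not a separate result.

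**Figure D3:**
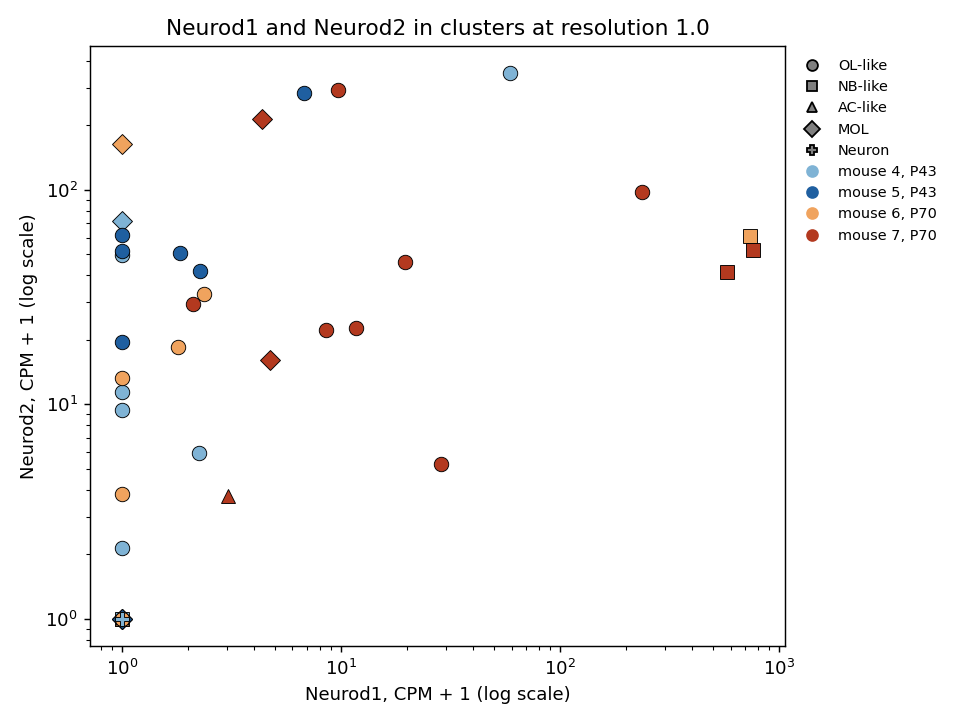
Neurod1 (x axis) and Neurod2 (y axis), both as CPM + 1 on log axes, in clusters at resolution 1.0, with a point per cluster and mouse. The NB-like clusters of mice 6 and 7 with Neurod1 over 570 CPM lie at 40.6 to 60.0 CPM of Neurod2, and the points with Neurod2 over 200 CPM lie below 60 CPM of Neurod1.

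The genes closest to the members were sought over 40 class-by-mouse sums of at least 20 cells, among 10301 genes, by Pearson r of log2(CPM + 10) with the members' mean. Cbln1, a secreted synapse organizer, was closest (r = 0.94), followed by Irs4 (0.91), Hpca (0.91), Prdm8 (0.91) and Cnr1, the cannabinoid receptor (0.91). The members' own r with that mean was 0.93 for Nhlh2 and Insm1, 0.92 for Neurod1, 0.87 for Elavl2, 0.86 for Calb2, 0.79 for Nhlh1, 0.64 for Neurod2, 0.62 for Neurod4, 0.36 for Neurog2 and 0.04 for Eomes. The members take part in that mean, and points of the same mouse share a library.

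By gene, Neurod1 was closest to Prdm8 (r = 0.98), a transcriptional repressor, and to Cbln1 (0.96) and Uncx (0.94), a homeobox factor. Uncx was at 197 and 110 CPM in the NB-like cells of mice 6 and 7, at no UMI in those of mice 4 and 5, and at 0 to 1.52 CPM in OL-like cells. Neurod2 was closest to En2 (0.91), a homeobox factor of the midbrain and hindbrain, then to Ppp1r17 (0.85) and St18 (0.85). Eomes was closest to Samd3 (0.92), and its list held genes of activated lymphocytes such as Tnfrsf9 (0.83). Within the 595 NB-like cells of mouse 7, among 8590 genes, Neurod1 went most with Sox11 (0.58), Sox4 (0.54), Nfib (0.53), Insm1 (0.50) and Kdm1a (0.49). Neurod2 went there with Epha5 (0.37). These correlations are across cells of 1 library and share its depth.

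Other genes of the pathway place the P70 NB-like cells. Of the early proneural genes, Neurog1 and Atoh1 had no UMI in NB-like cells of any mouse (3 counts would make 0.348 CPM in mouse 7, the deepest), whereas Neurog2 was found in 55 of 595 NB-like cells of mouse 7 without thinning. Of the E proteins, Tcf4 was at 608 and 824 CPM in mice 6 and 7, Tcf12 at 90.8 and 111 CPM and Tcf3 at 59.2 and 34.8 CPM. Id2 was the most read Id gene there, at 253 and 175 CPM, while Id1, Id3 and Id4 lay between 0 and 19.7 CPM. Later factors of excitatory neurons were split. Bhlhe22 was at 103 and 141 CPM and Neurod6 at 55.2 and 85.9 CPM, both with no UMI in the NB-like cells of P43. Tbr1 was at 11.8 and 0.116 CPM, the transporter Slc17a6 at 3.95 and 0 CPM, and Fezf2 and Tbx21 had no UMI. Ebf1, a factor of differentiating neurons, was at 253 and 159 CPM, against 17.7 CPM and no UMI in mice 4 and 5. The granule neuron genes Barhl1 and Gabra6 and the photoreceptor genes Otx2 and Rcvrn had no UMI in NB-like cells of any mouse, while Crx had 0.116 CPM in mouse 7. Cbln1, of the same list, went the other way, as the gene closest to the members' mean (r = 0.94). That list also holds Zic1, Zic2, Chga and Chgb, whose NB-like levels are not reported here.

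Over OL-, NB- and AC-like cells together, Neurod1, Nhlh2, Calb2 and Insm1 lay higher in both P70 mice than in both P43 mice, while Elavl2, Neurod2, Neurog2 and Nhlh1 overlapped. NB-like cells were 4.19% and 3.73% of these cells at P43 and 6.96% and 22.3% at P70, and their part in the levels was not tested. The P43 shares depend on integration, without which the NB-like cluster held 1 cell of mouse 4 and 3 of mouse 5. Neurod1 was at 1.22 and 1.03 CPM at P43 and at 33.0 and 165 CPM at P70. Nhlh2 was at 0.223 and 0 CPM against 7.27 and 47.3 CPM, and Calb2 at 0.223 and 1.03 CPM against 17.2 and 61.9 CPM. The ages do not overlap for any of the 3 genes, and mouse 7 lies above mouse 6 in each. Insm1, at 5.23 and 14.8 CPM against 19.8 and 73.3 CPM, did not overlap either, whereas Elavl2 did (40.2 and 27.3 CPM against 39.0 and 101 CPM), as did Neurod2 (13.6 and 52.8 CPM against 20.3 and 49.5 CPM), Neurog2 (0.556 and 2.88 CPM against 5.73 and 2.56 CPM) and Nhlh1 (0.779 and 2.05 CPM against 0.661 and 5.04 CPM). The log2 fold change of P70 over P43 was 7.46 ± 1.39 (SE) for Nhlh2, 6.36 ± 0.97 for Neurod1 and 6.11 ± 0.98 for Calb2, with 2 mice in each age. It was 2.18 ± 0.78 for Insm1, 1.24 ± 0.98 for Neurog2, 1.05 ± 1.08 for Nhlh1 and 0.98 ± 0.48 for Elavl2. Neurod2 was at 0.02 ± 0.73. In all, 8 of the 10 genes passed the filter on low counts, which favors genes that are high in 1 age, and their median was 1.71, against -0.01 over all genes. Over all genes, edgeR's quasi-likelihood test called 0 of 12071 genes at an adjusted p of 0.05 (0%), with 722 under an unadjusted p of 0.05, and DESeq2 called 158. Without mouse 6 edgeR called 65 genes, and without mouse 7 it called 28. Leaving out mouse 7 took the log2 fold change of Neurod1 to 4.803 ± 0.498, of Insm1 to 0.97 ± 0.65, of Elavl2 to 0.17 ± 0.37, of Nhlh1 to -1.06 ± 1.69 and of Neurod2 to -0.74 ± 0.78. Leaving out the library labelled mouse 4 gave -0.66 ± 0.55 for Neurod2, and leaving out that labelled mouse 5 gave 1.31 ± 0.62. Over the 4 leave-outs Nhlh2 ran from 5.51 to 11.68. Of the pathway lists, 48 of 64 genes were tested in this contrast and 0 were called. The median log2 fold change was 1.69 over 15 neuronal regulators (13 above 0), 1.60 over 6 late excitatory genes and 0.14 over 7 E protein and Id genes. It was 0.05 over 9 Notch and proneural genes and -1.33 over 6 inhibitory genes (1 above 0). The P43 sums hold the cells called NB-like by cluster only, and their part in the inhibitory median was not tested. Within OL-like cells the inhibitory median was -0.38 over 4 genes. The 5 genes tested of the granule neuron and photoreceptor list had a median of 1.14, from -0.01 for Zic1 to 7.36 for Cbln1. The others were Zic2, Chga and Chgb, so none of its photoreceptor genes was tested.

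Within OL-like cells, the 4 members that passed the filter on low counts did not differ between ages beyond the spread between mice. The log2 fold change of P70 over P43 was 1.01 ± 1.31 (SE) for Neurog2, 0.47 ± 0.56 for Insm1, 0.08 ± 0.74 for Neurod2 and -0.04 ± 0.27 for Elavl2. Each of these is within its standard error, and the spread of Neurod2 within an age (13.9 and 54.8 CPM at P43, 21.2 and 54.1 CPM at P70) was as wide as that between ages. The values hang on which P43 mouse is used. Without the library labelled mouse 5, Insm1 was at 1.41 ± 0.48 and Neurod2 at 1.41 ± 0.61. Without that labelled mouse 4, they were at -0.12 ± 0.40 and -0.62 ± 0.55. With all 4 mice but without the filter, the log2 fold change was 4.31 ± 1.58 for Nhlh2, 4.001 ± 1.24 for Calb2 and 2.45 ± 0.99 for Neurod1. The OL-like levels of these genes lay at 1.25 CPM or less in every mouse but mouse 7, the mouse with the largest share of NB-like cells. Of the 64 genes in the pathway lists, 36 were tested and 0 were called. Over all genes edgeR called 0 of 11561 (0%), with 500 under an unadjusted p of 0.05 and 41 called by DESeq2. The list gene with the lowest p, chosen after its values were seen, was Hes5, a target of Notch that holds precursors back. It was at 10.7 and 12.4 CPM in OL-like cells at P43 and at 152 and 110 CPM at P70, without overlap. Its log2 fold change was 3.46 ± 0.30 with an adjusted p of 0.41 by edgeR, and between 2.06e-17 and 0.967 over 11 alternatives.

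NB-like cells were often in cycle. A cell was called cycling when at least 2 of 8 mitotic genes such as Mki67 and Top2a were found among its 2000 UMIs. This held for 63.9% of NB-like cells in mouse 7 (375 of 587, 59.9 to 67.8) and for 68.2% in mouse 6 (15 of 22). It held for 53.9%, 41.5%, 50.5% and 43.3% of OL-like cells in mice 4 to 7, and for at most 5.17% of AC-like cells. In mouse 7, 60.6% of NB-like cells with a Neurod1 UMI were cycling (55.5 to 65.6), a lower share than the 69.7% of those without (63.0 to 75.8), and these intervals overlap.

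Within NB-like cells of mouse 7 the levels of most members differed little between states. Neurod1 was at 615 CPM in cycling cells and 695 CPM in others, a log2 ratio of -0.18 (95% counting interval -0.26 to -0.09). Nhlh2 was at 181 and 193 CPM, Elavl2 at 307 and 298 CPM, Calb2 at 227 and 253 CPM and Neurod2 at 43.6 and 45.1 CPM. Nhlh1 departed, with 10.7 CPM in cycling cells against 30.2 CPM in others, a log2 ratio of -1.50 (-1.997 to -1.004). Insm1 went the other way, at 268 against 209 CPM, a ratio of 0.35 (0.21 to 0.50). The 10 genes summed were at 1661 and 1735 CPM, a ratio of -0.06, and the median depth was 15706 UMIs in cycling cells and 11773.5 in others.

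Mouse 6, with 15 cycling and 7 other NB-like cells, did not show the same for every gene. Neurod1 was at 426 against 824 CPM, a ratio of -0.95 and the same direction as in mouse 7. Insm1 was at 96.1 against 282 CPM, a ratio of -1.55 and the opposite direction. Calb2 was at 144 against 532 CPM, and Nhlh1 had 3 UMIs in cycling cells and none in the others. These values rest on 7 cells in a state, and with enough cells in 1 mouse only, no test of cell cycle state in NB-like cells was made.

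**Figure D4:**
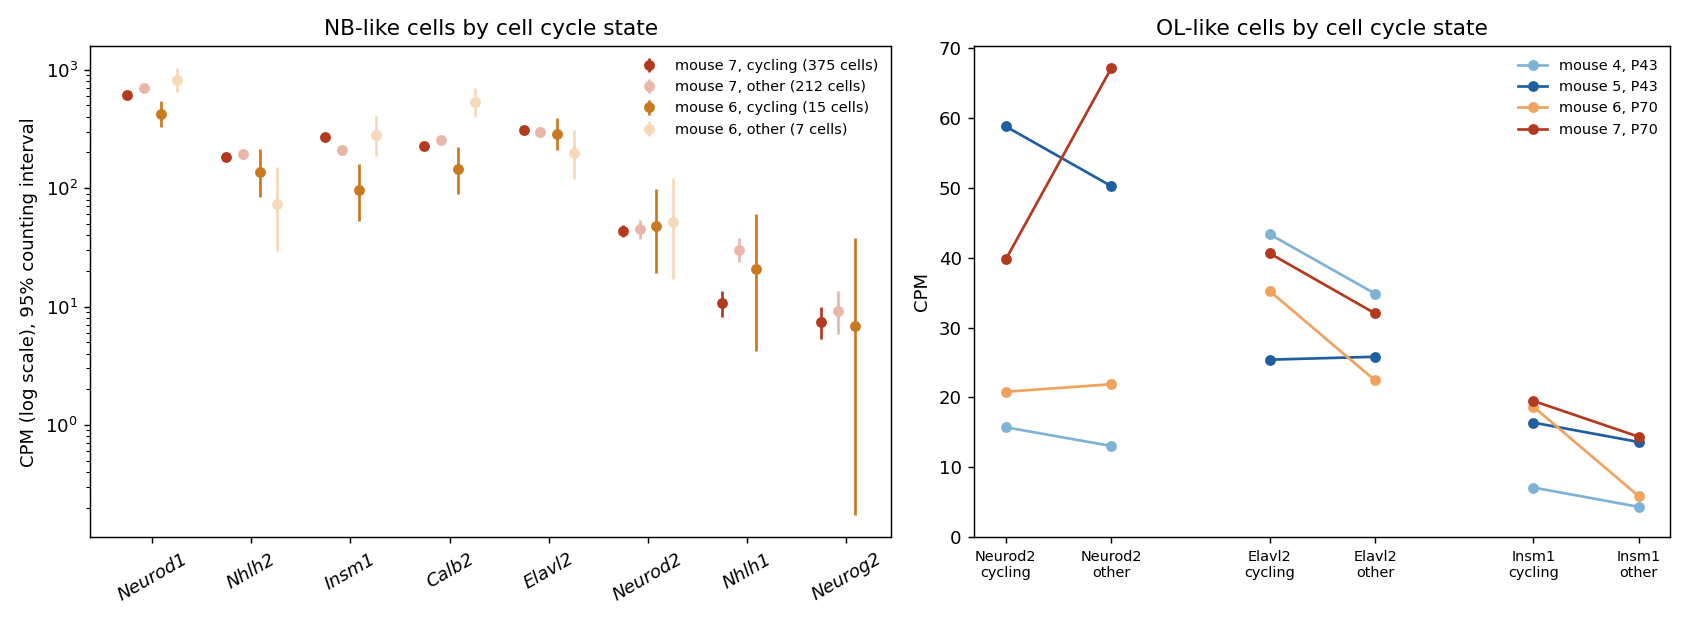
Left, level of each gene (CPM, log axis) in cycling and other NB-like cells of mice 6 and 7, with exact Poisson 95% intervals that cover counting error only. Right, CPM of Neurod2, Elavl2 and Insm1 in cycling and other OL-like cells, with a line for each mouse. Nhlh1 is lower in cycling cells of mouse 7 (10.7 against 30.2 CPM), and Insm1 is higher in cycling OL-like cells of all 4 mice.

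In OL-like cells, Insm1 was higher in cycling cells of all 4 mice, at 7.12 against 4.35, 16.4 against 13.6, 18.7 against 5.87 and 19.5 against 14.4 CPM in mice 4 to 7. Elavl2 was higher in 3 of the 4, at 43.3 against 34.8, 35.2 against 22.4 and 40.6 against 32.0 CPM in mice 4, 6 and 7, and at 25.4 against 25.8 CPM in mouse 5. Neurod2 had no common direction. It was at 15.7 against 13.1 CPM and at 58.7 against 50.2 CPM in mice 4 and 5, and at 20.8 against 21.9 CPM and at 39.8 against 67.1 CPM in mice 6 and 7. The log2 fold change with mouse as a block was 0.55 ± 0.17 (SE) for Insm1, 0.30 ± 0.10 for Elavl2 and -0.34 ± 0.15 for Neurod2, the 3 members that passed the filter. As background, the same fit called 18.5% of the 10266 genes tested, 10.0% higher and 8.45% lower in cycling cells.

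That fit also covers the other genes of the pathway. Their lists were chosen with earlier results of these data known, and Sox11 and Sox4 are also markers that name cell classes. The p-values below carry that limit. Of the 64 genes, 31 were tested. Of these, 4 were higher and 6 lower in cycling OL-like cells by edgeR's quasi-likelihood test with Benjamini-Hochberg adjustment over all genes. Sox11 rose by 0.76 ± 0.10 on the log2 scale (adjusted p = 8.57e-06) and Pax6, a factor of neural precursors, by 0.93 ± 0.21 (adjusted p = 0.00385). Sox4, which acts beside Sox11 in young neurons, moved the other way with -0.49 ± 0.06 (adjusted p = 3.28e-06), and Elavl3, a relative of Elavl2, with -0.46 ± 0.10 (adjusted p = 0.00325). Zic1 and Id2 were the other higher genes, and Mfng, St18, Myt1 and Hes6 the other lower ones, at absolute log2 changes of 0.78 or less. By group, 2 of 7 Notch and proneural genes were called lower and none higher, 1 of 6 E protein and Id genes higher, and 2 higher and 4 lower of 10 neuronal regulators. Neither the 2 excitatory nor the 4 inhibitory genes tested were called. Of the 2 genes tested from the granule neuron and photoreceptor list, 1 was higher, Zic1. Each of these 10 calls was lost under at least 1 of 15 alternatives, with a highest adjusted p of 0.175 for Sox4 and up to 0.999 for others. Without the block, edgeR called 281 genes in place of 1895 and none of the lists, and without mouse 7 it called 768 genes and 3 of the lists.

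In mouse 7, genes of NB-like cells stood higher in cycling than in other OL-like cells. Neurod1 was at 19.6 against 5.45 CPM, Calb2 at 8.61 against 0.681 CPM and Nhlh2 at 4.64 against 1.21 CPM. In mice 4 to 6 all 3 genes were at 1.83 CPM or less in either state. Whether doublets or free RNA from NB-like cells, 63.9% of which were cycling, add to these values was not tested. Nor was this tested for Sox11, a leading gene of the NB-like cluster, which rose in the fit above.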

How the data were processed

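Single-cell RNA-seq was done on olfactory bulb/tumor tissue from each of 4 mice. The authors aligned reads of 3′ libraries with Cell Ranger 6.0.2 to mouse mm10 extended with firefly luciferase and human MYCN, and deposited the unnormalized UMI counts of every gene in every barcode. Here, following the filters of the study's methods, cells had to show 200 genes or more, under 25% mitochondrial UMIs and no more than 40000 UMIs. They were integrated across mice and clustered (Seurat 5.3.0, R 4.3.3; 2000 variable genes, 30 components, resolution 0.5). The UMI limit was the only step against doublets. Clusters with at least 500 CPM of reporter passed the level for tumor, and classes were named from fixed markers. The main tumor fit used OL-, NB- and AC-like cells only, without the MOL-marked cells and the cluster with no class. UMI counts were summed per mouse and class (at least 20 cells for a fit). Shares of cells were taken after thinning each cell to 2000 UMIs, with exact binomial (Clopper-Pearson) 95% intervals. These, and the limit that 3 counts set, cover counting error only. Cycling cells held at least 2 of 8 cycle genes.

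edgeR 4.0.16 (quasi-likelihood, TMM) compared P70 with P43 in tumor and in OL-like cells, and cycling with other OL-like cells with mouse as block, which pairs both states of the same animal. An adjusted p of 0.05 was the threshold. DESeq2 1.42.0, other cluster settings, no filter on low counts and leaving out each mouse were alternatives. Mice are the replicates, 1 library each. The fits were tested on simulated data. The members and gene lists were chosen with earlier results of these data known, so no test of the members is given. Named genes are the 10 members, 6 pathway lists of 64 genes, and the 5 genes most correlated with each of the members' mean and Neurod1. Genes closest to other members were named beyond that rule, as were label-check markers. Python 3.11.15, numpy 2.4.6 and scipy 1.17.1 were used. Sequences are RefSeq's. Some genes of the lists are not reported here.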

Additional observations from a re-analysis of the deposited data

Results flagged for a closer look

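Some of the 10 genes were also read in cells that no fit uses. In a cluster with reporter RNA that was led by the neutrophil genes Camp, Ngp and S100a9 and was given no class, the 10 genes summed to 92.1 CPM in mouse 4 (5 UMIs), 64.9 CPM in mouse 5 (7 UMIs), 14.8 CPM in mouse 6 (7 UMIs) and 542 CPM in mouse 7 (41 UMIs). In mice 4 and 6 the UMIs in that cluster were of Neurog2, Insm1 or Elavl2 only, with none of a Neurod or Nhlh gene. At resolution 1.0 no cluster was without a class. A neutrophil cluster there held 21, 9, 94 and 4 cells of mice 4 to 7, with 78.0 CPM of reporter. An OL-like cluster led by human MYCN and FLUC held 12, 35, 19 and 51 cells, with 11022 CPM of reporter. Which of these kinds of cell held the UMIs of the 10 genes was not tested. In the barcodes that the filters left out, the 10 genes summed to 76.8, 94.9, 133 and 601 CPM for mice 4 to 7, and Neurod1 alone gave 0, 0, 77 and 270 UMIs there. Myeloid cells, as the level without these genes, held 0, 0, 2.19 and 7.78 CPM. The cluster with no class and the left-out barcodes were flagged because they lie above that level outside the main measurement. They were highest in mouse 7, the mouse with most NB-like cells, and the part of NB-like doublets or fragments in them was not tested.

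Neurod2 was flagged because both P43 mice lay on one side and both P70 mice on the other. The log2 ratio of cycling to other OL-like cells was 0.27 in mouse 4 and 0.23 in mouse 5, against -0.073 in mouse 6 and -0.76 in mouse 7. The difference between ages was not tested, and the value of mouse 6 is close to 0.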

How the results depend on the processing

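The P70 level of the 10 genes summed in NB-like cells (mean 1587 CPM) moved by less than the spread between mice except without integration (1773) and with tumor cells called cell by cell (1778), and leaving out a mouse gave 1488 to 1687. The P43 level (mean 286 CPM) rests on few cells and moved more, to 248 at resolution 1.0, 370 at 60000 UMIs, 322 with members left out of clustering, 363 under 10% mitochondrial UMIs, 82.3 without integration and 98.3 cell by cell, and leaving out a mouse gave 272 to 301. The mean P70 share of NB-like cells with Neurod1 (63.8%, 63.6 to 64.1 by mouse) was 80.1% without thinning and 40.7% at 1000 UMIs, and the share of mouse 7 cells with at least 3 members (37.8%) was 88.7% and 13.01%, so these shares are tied to depth. For age in tumor cells, 0 genes were called by edgeR, 158 by DESeq2, 7 without the filter and 0 to 65 leaving out a mouse, with 0, 4, 1 and 0 to 5 genes of the pathway lists. For age in OL-like cells, DESeq2 called 41 and no filter 2, with 1 list gene each, and leaving out a mouse called 0 list genes. For cycling in OL-like cells (1895 genes, 10 list genes), the fit without mouse as a block called 281 and 0, DESeq2 819 and 3, no integration 6 list genes, and leaving out a mouse 768 to 1630 genes and 3 to 11 list genes, the lowest both without mouse 7. Id2 turned to -0.30 without integration, and Hes5, which was not called (-0.44), to 0.045 by DESeq2. In NB-like cells the summed cycling ratio of -0.063 (mouse 7) became 0.016 at 3 of 8 cycle genes. In mouse 6 it was -0.75, and it became -0.15 without integration and 0.18 with states called at 1000 UMIs. The cause of these shifts was not tested. DESeq2, no filter and no block were not run there, as 1 mouse alone had enough cells of both states. No paired analysis was possible because the ages come from different mice, whose replicate numbers are only names.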
